A study of Mus musculus with 6 samples.

Results

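The genes described here encode the ATP-driven ion pumps of animal cell membranes and the small FXYD proteins that tune the sodium pump. They were chosen by symbol. Every gene of the platform annotation whose probe sets carry exactly 1 symbol was taken if that symbol begins with Atp1a, Atp1b, Atp2a, Atp2b, Atp2c, Atp4, Atp6, Atp12a or Fxyd. The genes Atp6v1b1, Atp6v0d2, Atp6v1g3 and Atp6v1c2, which code for V-ATPase subunits of intercalated cells, were left out of the rule. This gave 43 genes, measured by 90 probe sets, of 18193 genes on the array. They fall into 12 genes of the sodium/potassium (Na/K) pump and its FXYD regulators, 9 calcium (Ca) pumps and 22 genes of proton pumps.

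Expression was measured on Affymetrix arrays in tissue dissected from mouse kidney. The 3 samples labelled Fh1 knockout came from renal cystic epithelium of mice lacking Fh1, the gene of fumarate hydratase, and the 3 wild-type samples came from kidney epithelium of disease-free wild-type littermates matched for sex. Each sample has 1 array and a number from 1 to 3 within its group. The sources used here give neither the age of the mice, nor the allele, nor what drives the deletion. They do not say whether the samples are from different animals, so each p-value reflects only how these samples vary, which may be technical.

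P-type pumps such as the Na/K pump, the Ca pumps and the H/K pumps form a phosphorylated intermediate while they move ions across a membrane. The Na/K pump sits on the basolateral side of tubule cells and keeps cell sodium low, which drives most reabsorption in the nephron. Ca pumps of the endoplasmic reticulum, the plasma membrane and the Golgi clear calcium from the cytosol. The V-ATPase is a rotary pump, with a V1 sector in the cytosol that splits ATP and a membrane V0 sector that carries protons; it acidifies lysosomes and endosomes in all cells and urine in intercalated cells.

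The values are log2 expression values made by the authors with RMA, and differences are knockout minus wild type, so that a log2 fold change of 1 is a doubling. A gene was called when its adjusted p was under 0.05 in limma's moderated test, with Benjamini-Hochberg adjustment over 18193 genes. Each adjusted p below is from that test. Fh1 itself read 11.54, 11.60 and 11.61 in knockout samples, against 12.41, 12.34 and 12.22 in wild-type samples (log2 fold change -0.74, SE 0.08, adjusted p = 0.000396). Of all genes 49.2% were called, 21.6% higher and 27.7% lower, with a median log2 fold change of -0.11 over the array. The calls were 56.2% lower, or 67.0% once arrays were re-centred on their gene median.

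Markers of kidney cell types differed widely between the groups, on arrays where 49.2% of all genes were called. All 16 proximal tubule markers fell (median log2 fold change -1.52; mean level 10.77 to 11.07 in knockout and 12.61 to 12.65 in wild-type arrays). Of 12 thick limb and distal convoluted tubule markers 11 fell (median -0.95; mean level 10.11 to 10.59 in knockout and 11.63 to 11.78 in wild-type arrays). Of 13 intercalated cell markers 9 fell and 1 rose (median -1.04; mean level 8.18 to 8.30 in knockout and 9.0 to 9.37 in wild-type arrays). Principal cell markers, 10 in all and Fxyd4 among them, had 1 higher and 2 lower (median 0.18; mean level 8.95 to 9.41 in knockout and 9.08 to 9.40 in wild-type arrays). Macrophage and osteoclast markers rose in 14 of 16 cases and fell in 1 (median 1.76; mean level 9.17 to 9.72 in knockout and 7.71 to 8.02 in wild-type arrays). Fibroblast and matrix markers rose in 9 of 14 cases (median 1.42; mean level 9.12 to 10.07 in knockout and 8.11 to 8.34 in wild-type arrays). The 2 markers of each list that changed most were Slc6a19 (7.29-fold lower) and Slc5a12 (6.68-fold lower) of proximal tubule, Pvalb (12.5-fold lower) and Egf (12.2-fold lower) of distal segments, Slc26a4 (5.45-fold lower) and Slc4a1 (4.32-fold lower) of intercalated cells, and Aqp4 (4.28-fold lower) and Gata3 (2.34-fold higher) of principal cells. Among macrophage markers Cd14 rose 7.86-fold and Mrc1 5.28-fold, and among matrix markers Fn1 rose 7.25-fold and Col3a1 6.77-fold. Small counts in these lists turned on 1 array. The intercalated marker that rose lost its call without knockout 1, knockout 2 or wild-type 3, and 2 rose without wild-type 2. Principal cell markers had 1 lower without knockout 1, wild-type 1 or wild-type 3, and 2 higher without wild-type 1 or wild-type 2. Among matrix markers 1 fell without knockout 3. In these bulk samples fewer cells of a type and less RNA per cell cannot be told apart, and the part of cell composition in the results below was not tested. RMA gives no detection call, so a marker at 0 cannot be read from these values.

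Of the 43 pump and FXYD genes, 5 rose and 18 fell in the knockout, and 20 did not pass. That is 53.5% called, beside 49.2% of all genes. The median log2 fold change was -0.22, beside -0.11 for all genes. In 28 genes the knockout and wild-type values did not overlap, 65.1% beside 62.9% of all genes. Changes of at least 2-fold were seen in 5 genes: Atp12a, Fxyd3 and Fxyd5 rose, and Atp4a and Atp6v0a4 fell. Across the array 8.83% of genes were called with such a change.

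**Figure D1:**
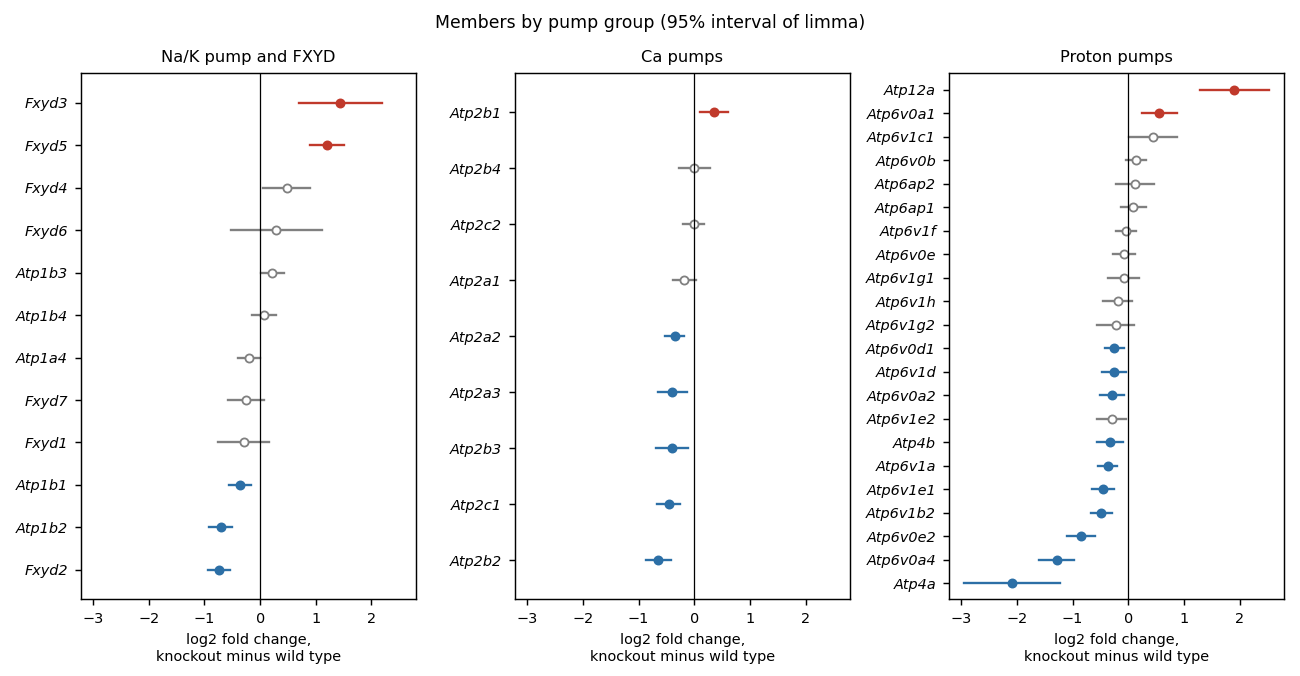
Log2 fold change (knockout minus wild type) of the 43 genes in 3 panels, with the 95% interval of limma as bars; filled red points rose, filled blue points fell and open grey points did not pass. The largest changes, in Atp12a (1.91) and Atp4a (-2.09), lie in the proton pump panel and run in opposite directions, and most Ca pumps lie left of 0.

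Among the Na/K pump subunits, the beta subunits Atp1b1 and Atp1b2 fell. Of the 12 genes of the Na/K group, 2 rose, 3 fell and 7 did not pass, with a median log2 fold change of -0.07. The called share was 41.7%, beside 49.2% of all genes. Atp1b1, the beta subunit that tubule cells use to fold the alpha subunit and carry it to the basolateral membrane, read 13.40, 13.37 and 13.53 in knockout samples, against 13.73, 13.79 and 13.85 in wild-type samples. The groups did not overlap, and the log2 fold change was -0.36 (SE 0.08, adjusted p = 0.0112), a 1.28-fold fall. Of its 5 probe sets 4 were called lower, with log2 fold changes of -0.53 to -0.36, and the dimmest read -0.34 with adjusted p = 0.0631.

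Atp1b2, a beta subunit first described as an adhesion molecule of glia, fell further. It read 6.55, 6.75 and 6.58 in knockout samples, against 7.35, 7.25 and 7.40 in wild-type samples (log2 fold change -0.71, SE 0.09, adjusted p = 0.000719). Both of its probe sets were called lower. Nerve and glia markers were dim in both groups (mean level 4.64 to 4.74 in knockout and 4.80 to 5.0 in wild-type arrays), with 0 higher and 1 lower of 10, or 2 lower without wild-type 1; the marker that fell was Prph (1.34-fold). The third beta subunit gene, Atp1b3, lay the other way without passing the threshold. It read 11.22, 11.21 and 11.26 in knockout samples, against 11.10, 11.06 and 10.88 in wild-type samples (log2 fold change 0.22, SE 0.09, adjusted p = 0.0697). Atp1b4, whose product in placental mammals is a nuclear envelope protein of muscle rather than a pump subunit, and Atp1a4, the alpha subunit of sperm, were dim. Their log2 fold changes were 0.07 (adjusted p = 0.554) and -0.20 (adjusted p = 0.0875). All 6 Atp1b4 values lay under the lower quartile of their array.

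The FXYD proteins are short membrane proteins that bind the Na/K pump and change its affinity for sodium or potassium. Of 7 genes, Fxyd3 and Fxyd5 rose, Fxyd2 fell, and Fxyd1, Fxyd4, Fxyd6 and Fxyd7 did not pass. Thus 42.9% were called, beside 49.2% of all genes. In the mouse RefSeq table of GRCm38.p6, Fxyd5, Fxyd7, Fxyd1 and Fxyd3 lie in this order on chromosome 7, with Lgi4 between Fxyd1 and Fxyd3 and no other protein-coding gene among them. Fxyd6 and Fxyd2 are neighbours on chromosome 9.

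Fxyd2, the gamma subunit of the renal pump, which lowers its affinity for sodium, had 13.18, 13.02 and 13.19 in knockout samples, against 13.86, 13.89 and 13.86 in wild-type samples. The knockout values lay well below the wild-type values, which spread by an SD of 0.02. The log2 fold change was -0.74 (SE 0.08, adjusted p = 0.000370), a 1.67-fold fall. Its 4 probe sets were all called lower but by unequal amounts. The 3 bright ones had log2 fold changes of -0.81 to -0.54. The dimmest probe set read 6.43, 6.09 and 7.13 in knockout samples, against 9.31, 8.59 and 9.06 in wild-type samples, a log2 fold change of -2.44 (SE 0.27). Which Fxyd2 transcripts each probe set detects is not known here.

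Fxyd5, or dysadherin, a regulator of the pump that in cultured cells also weakens adhesion through E-cadherin, read 8.81, 9.19 and 9.16 in knockout samples, against 8.02, 7.83 and 7.68 in wild-type samples. Every knockout value was higher than every wild-type value. The log2 fold change was 1.21 (SE 0.13, adjusted p = 0.000341), a 2.31-fold rise. Fxyd3, or Mat-8, first found in mammary tumours, read 7.56, 7.86 and 8.16 in knockout samples, against 7.20, 5.88 and 6.18 in wild-type samples. The groups did not overlap, though wild-type 1 lay close to knockout 1. The log2 fold change was 1.44 (SE 0.32, adjusted p = 0.00874), and 1.83 without wild-type 1. Each of these genes has 1 probe set. Markers of macrophages and of matrix were higher beside them, with medians of 1.76 and 1.42.

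Fxyd4, or CHIF, which raises the pump's affinity for sodium in the collecting duct, read 11.01, 11.40 and 11.25 in knockout samples, against 11.03, 10.84 and 10.36 in wild-type samples. Knockout 1 lay inside the wild-type range, and the log2 fold change of 0.48 (SE 0.18) did not pass (adjusted p = 0.0589). Without wild-type 1 it passed, at 0.62 (adjusted p = 0.0312). Fxyd1, or phospholemman, the regulator of heart and muscle, read 7.34, 7.59 and 8.17 in knockout samples, against 8.07, 7.88 and 8.03 in wild-type samples. Knockout 3 lay above all wild-type values. Without it the gene was called lower, at -0.53 (adjusted p = 0.0169), against -0.30 (adjusted p = 0.232) with it. Knockout 3 was also the high sample of Fxyd6, a regulator found mainly in brain, which read 6.34, 6.73 and 7.85 in knockout samples and 6.66, 6.46 and 6.93 in wild-type samples (log2 fold change 0.29, SE 0.35, adjusted p = 0.506). Fxyd7, of brain, was dim, with 5 of 6 values under the lower quartile of their array, and did not pass (log2 fold change -0.26, adjusted p = 0.149).

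**Figure D2:**
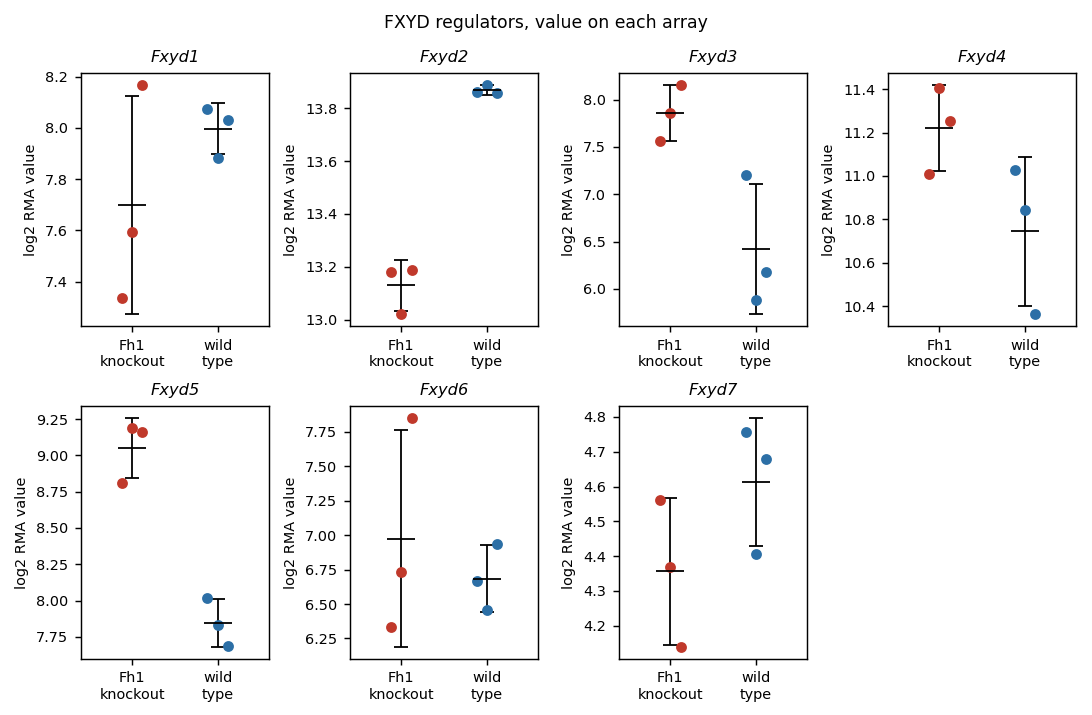
Log2 RMA value of the 7 FXYD genes on each array, knockout left and wild type right, with the group mean as a bar and 1 SD as whiskers; each panel has its own vertical scale. Fxyd2 lies lower and Fxyd3 and Fxyd5 higher in knockout samples with no overlap, and Fxyd1 and Fxyd6 are spread wide by knockout 3.

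Sodium transporters and channels that work beside the pump, with the kinases and receptors that regulate them, were mostly lower. Of 24 measured genes 15 fell, and 1 rose, with a median log2 fold change of -0.68. Called genes were 66.7% of the list, beside 49.2% of all genes. Several of them, Slc5a2 and Slc12a3 included, are also tubule markers counted above, so the lists are not separate evidence. Slc5a2, the sodium-glucose cotransporter of the early proximal tubule, fell 5.29-fold (log2 fold change -2.40, SE 0.16), Slc9a3, the apical sodium/proton exchanger NHE3, 5.23-fold (log2 fold change -2.39, SE 0.17) and Slc12a3, the thiazide-sensitive cotransporter, 3.73-fold (log2 fold change -1.90, SE 0.22). The gene that rose was Slc12a2, the basolateral cotransporter NKCC1 (log2 fold change 0.44, SE 0.13, adjusted p = 0.0243). Its call ended without knockout 1 (adjusted p = 0.0601), knockout 2 (adjusted p = 0.0649) or knockout 3 (adjusted p = 0.0753) and with the mean of all its probe sets (adjusted p = 0.0606), and without wild-type 2 the genes higher numbered 2.

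Most Ca pumps were slightly lower. Of 9 genes, 5 fell, 1 rose and 3 did not pass, with a median log2 fold change of -0.35 and no change of 2-fold. The called share was 66.7%, beside 49.2% of all genes, whose median was -0.11. Without knockout 1, knockout 3 or wild-type 3 the genes lower numbered 3, and without wild-type 1 or any 1 knockout sample none was called higher. Atp2a2, the SERCA pump of the endoplasmic reticulum in most cells, read 12.20, 12.20 and 12.19 in knockout samples, against 12.59, 12.49 and 12.56 in wild-type samples (log2 fold change -0.35, SE 0.07, adjusted p = 0.00729). The groups were far apart for their spread. Of its 6 probe sets 4 were called lower, with log2 fold changes of -0.86 to -0.35, and the 2 dimmest were not called.

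Atp2a3, the SERCA pump of blood cells, endothelium and some epithelia, had a log2 fold change of -0.39 (SE 0.11, adjusted p = 0.0238) and both probe sets were called lower. Its call ended without knockout 1 (adjusted p = 0.0673), knockout 3 (adjusted p = 0.0764) or wild-type 3 (adjusted p = 0.0593). Atp2a1, of fast skeletal muscle, did not pass (log2 fold change -0.18, adjusted p = 0.128). Muscle markers had 2 higher, Tagln (2.41-fold) and Acta2 (1.95-fold), and 2 lower of 14 (median -0.05; mean level 6.28 to 6.42 in knockout and 6.29 to 6.41 in wild-type arrays), with 1 lower without knockout 1 or knockout 3. With the mean of all probe sets Acta2 lost its call (log2 fold change 0.27, adjusted p = 0.0552), and 1 muscle marker was higher and 1 lower.

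Atp2c1, the Golgi pump for calcium and manganese, read 9.47, 9.46 and 9.52 in knockout samples, against 9.81, 9.99 and 10.02 in wild-type samples (log2 fold change -0.46, SE 0.09, adjusted p = 0.00430). Its 5 probe sets disagreed. Besides the brightest, 2 were lower (-1.0 and -0.77), 1 was not called (0.15) and the dimmest was higher (0.36), at a level under the lower quartile of every array. Its relative Atp2c2 was dim and did not pass (log2 fold change -0.01, adjusted p = 0.934).

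The plasma membrane pumps went in both directions. Atp2b1, the form found in nearly all cells, read 9.76, 9.65 and 9.76 in knockout samples, against 9.41, 9.53 and 9.18 in wild-type samples. The groups did not overlap, and the log2 fold change was 0.35 (SE 0.11, adjusted p = 0.0293). A further probe set was called higher, at 0.99, with wild-type 3 as its lowest array, and the dimmest of the 3 was not called (0.10). The call of Atp2b1 was fragile. It ended without any 1 of the knockout samples (adjusted p = 0.0551 to 0.0899), without wild-type 1 (adjusted p = 0.0532) and with re-centred arrays (log2 fold change 0.27, adjusted p = 0.0530).

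Atp2b2 and Atp2b3, which are best known from neurons, fell at low signal. Atp2b2 read 5.12, 5.28 and 5.23 in knockout samples, against 5.74, 5.81 and 6.02 in wild-type samples (log2 fold change -0.64, SE 0.10, adjusted p = 0.00170), and all 3 probe sets were called lower. Atp2b3 had a log2 fold change of -0.40 (SE 0.12, adjusted p = 0.0288), which lost its call without knockout 1, knockout 3, wild-type 2 or wild-type 3 (adjusted p = 0.0540 to 0.100). Atp2b4, a pump described in the distal nephron and in red cells, read 4.10, 4.19 and 4.52 in knockout samples, against 4.25, 4.34 and 4.22 in wild-type samples. All 6 values lay under the lower quartile of their array, and no difference was measurable (log2 fold change 0.00, 95% interval -0.27 to 0.28, adjusted p = 0.996).

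Other genes of calcium handling changed in both directions. Of 28 measured channels, exchangers, store proteins and buffers, 4 rose and 11 fell, with a median log2 fold change of -0.24. Called genes were 53.6% of this list, beside 49.2% of all genes. Calb1 is also among the distal markers counted above. Itpr3, a calcium release channel of the endoplasmic reticulum, rose 4.51-fold (log2 fold change 2.17, SE 0.08). Trpv6, an apical calcium channel, rose 1.88-fold and Stim2, a sensor of store calcium, 1.71-fold. Slc8a1, the sodium/calcium exchanger, fell 2.96-fold, S100g, calbindin-D9k, 2.93-fold, and Pth1r, the parathyroid hormone receptor, 2.89-fold.

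The proton pump genes held both the largest rise and the largest fall of the 43 genes. Of 22 genes, 2 rose, 10 fell and 10 did not pass, with a median log2 fold change of -0.24. Calls made up 54.5% of the group, beside 49.2% of all genes. Without knockout 1 and without knockout 3 the genes lower numbered 6. The 3 genes of H/K pumps, which exchange protons for potassium, were all called. Atp12a, the catalytic subunit of the non-gastric H/K pump of colon and collecting duct, read 5.92, 6.90 and 6.97 in knockout samples, against 4.72, 4.86 and 4.48 in wild-type samples. Knockout 1 was the lowest of the knockout samples and still lay above every wild-type sample. The log2 fold change was 1.91 (SE 0.27, adjusted p = 0.00111), a 3.75-fold rise. The wild-type values lay around the lower quartiles of their arrays, which ran from 4.62 to 4.77, so the size of the rise is uncertain.

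Atp4a, the catalytic subunit of the gastric H/K pump, which is also found in the collecting duct, went the other way. It read 6.79, 6.47 and 7.42 in knockout samples, against 8.61, 9.82 and 8.53 in wild-type samples. Wild-type 2 stood above the other wild-type samples, and the highest knockout value lay below the lowest wild-type value. The log2 fold change was -2.09 (SE 0.37, adjusted p = 0.00319), a 4.26-fold fall, and -1.67 to -2.36 with any 1 array left out. Atp4b, the beta subunit of that pump, read 7.27, 7.41 and 7.26 in knockout samples, against 7.50, 7.64 and 7.80 in wild-type samples (log2 fold change -0.33, SE 0.10, adjusted p = 0.0286). The call of Atp4b ended without knockout 1 (adjusted p = 0.0910), knockout 3 (adjusted p = 0.0920) or wild-type 3 (adjusted p = 0.0554). Each of the 3 genes has 1 probe set.

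The V-ATPase accounts for the other 19 proton pump genes, of which 1 rose, 8 fell and 10 did not pass. That is 47.4% called, beside 49.2% of all genes. Within the membrane sector the isoforms of the large subunit a, which places the pump on particular membranes, moved differently. Atp6v0a4, the isoform of intercalated cells and proximal tubule, read 8.28, 8.24 and 8.67 in knockout samples, against 9.56, 9.83 and 9.65 in wild-type samples. Every knockout value lay below every wild-type value. The log2 fold change was -1.28 (SE 0.13, adjusted p = 0.000281), a 2.44-fold fall, and it was called in every fit with 1 array left out.

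Atp6v0a2, the isoform of Golgi and endosomes, had a log2 fold change of -0.30 (SE 0.09, adjusted p = 0.0295), and its call ended without any 1 knockout sample or wild-type 2 (adjusted p = 0.0653 to 0.0876). Atp6v0a1, a widely expressed isoform that is abundant in neurons, read 8.27, 8.22 and 8.15 in knockout samples, against 7.75, 7.35 and 7.88 in wild-type samples (log2 fold change 0.56, SE 0.14, adjusted p = 0.0132). Its probe sets conflict. Of 4, the brightest and the dimmest were called higher (0.56 and 0.53), 1 was not called (0.31) and 1 was called lower (-0.40). With the mean of all its probe sets the gene was not called (log2 fold change 0.25, adjusted p = 0.137). The last isoform of subunit a, Tcirg1, named for its role in osteoclasts and T cells and so outside the symbol rule, rose 1.98-fold (log2 fold change 0.99, SE 0.11). Macrophage and osteoclast markers rose in the same samples (median 1.76), and their part in it was not tested.

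**Figure D3:**
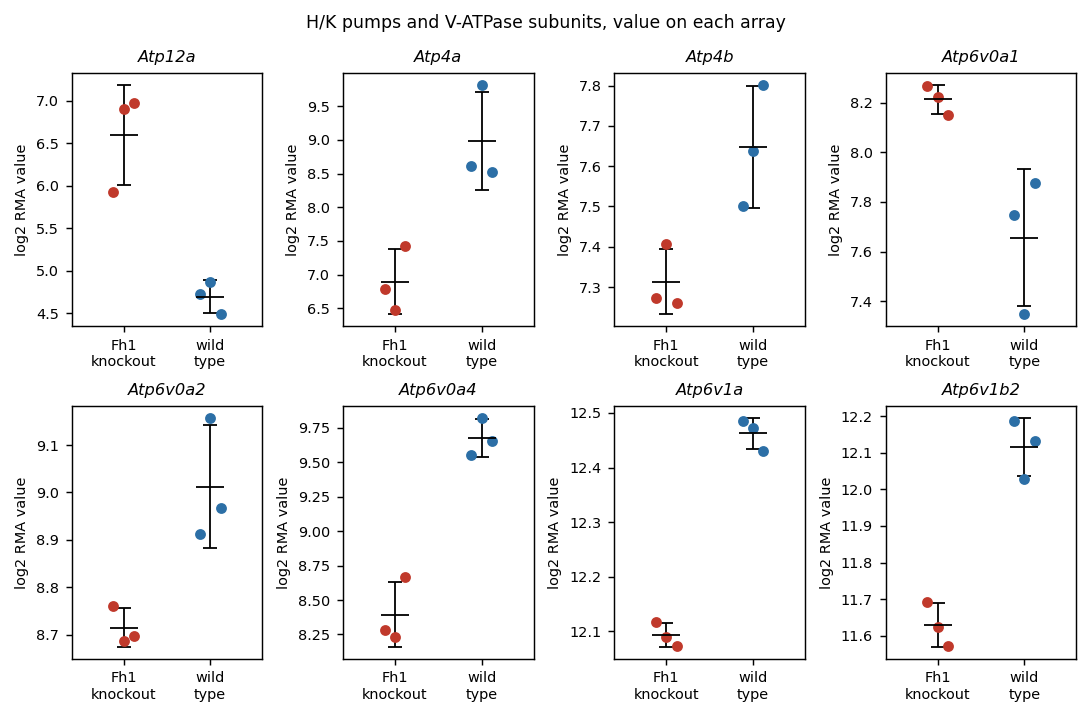
Log2 RMA value of 3 H/K pump genes and 5 V-ATPase genes on each array, knockout left and wild type right, with the group mean as a bar and 1 SD as whiskers; each panel has its own vertical scale. Atp12a and Atp6v0a1 lie higher and the other 6 lower in the knockout, with no overlap of groups in any panel. Only called genes are drawn. Over all 22 proton pump genes the groups did not overlap in 63.6%, beside 62.9% of all genes.

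The remaining V0 subunits were bright and changed little, apart from Atp6v0e2. That gene, a variant of the small subunit e, read 9.03, 8.88 and 8.98 in knockout samples, against 9.67, 9.74 and 10.03 in wild-type samples (log2 fold change -0.85, SE 0.11, adjusted p = 0.000821), a 1.80-fold fall. Its common form Atp6v0e did not pass (log2 fold change -0.08, adjusted p = 0.481). Atp6v0d1, the widespread subunit d that joins V1 to V0, fell by 0.25 on the log2 scale (SE 0.07, adjusted p = 0.0245), a call that ended without any 1 knockout sample or wild-type 1 (adjusted p = 0.0570 to 0.0804). Atp6v0b, subunit c″ of the proteolipid ring, did not pass (log2 fold change 0.14, adjusted p = 0.158).

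In the V1 sector, the subunits of the catalytic head fell by small amounts. Atp6v1a, which splits ATP, read 12.12, 12.09 and 12.07 in knockout samples, against 12.49, 12.47 and 12.43 in wild-type samples. Its values spread by SDs of 0.02 and 0.03, and the log2 fold change was -0.37 (SE 0.07, adjusted p = 0.00522), with both probe sets called lower. Atp6v1b2, the B subunit of most cells, read 11.69, 11.62 and 11.57 in knockout samples, against 12.19, 12.03 and 12.13 in wild-type samples. The groups did not overlap, and the log2 fold change was -0.49 (SE 0.08, adjusted p = 0.00267), a 1.40-fold fall. Of its 4 probe sets the 2 brightest were called lower, and the dimmer ones were not called (-0.14 and -0.08).

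Among the stalk subunits, Atp6v1e1, of the peripheral stalks, fell by 0.46 on the log2 scale (SE 0.09, adjusted p = 0.00395). Of its 4 probe sets 2 were called lower, and the others were not called (-0.07 and -0.02). Atp6v1d, of the central rotor, passed by a small margin (log2 fold change -0.26, SE 0.09, adjusted p = 0.0457). It lost its call in 5 of the 6 fits with 1 array left out, the exception being that without wild-type 3, and in the fit over all probe sets (adjusted p = 0.0521). Atp6v1c1, Atp6v1e2, Atp6v1f, Atp6v1g1, Atp6v1g2 and Atp6v1h did not pass, with log2 fold changes of -0.30 to 0.44. Atp6v1c1, the subunit that controls the joining of V1 to V0, read 11.09, 11.16 and 11.04 in knockout samples, against 11.08, 10.60 and 10.27 in wild-type samples. Wild-type 1 was level with the knockout, and without it the gene was called higher (log2 fold change 0.66, adjusted p = 0.00694), although its other 2 probe sets read -0.09 and -0.08. Atp6v1h, a regulatory subunit, was called lower without wild-type 3 (log2 fold change -0.31, adjusted p = 0.0127), and 1 of its dimmer probe sets was called higher (0.92).

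The accessory proteins Atp6ap1, an assembly factor, and Atp6ap2, the prorenin receptor, did not pass. Atp6ap2 read 12.34, 12.42 and 12.44 in knockout samples, against 12.45, 12.47 and 11.94 in wild-type samples. The knockout values lay inside the wild-type range, and the log2 fold change was 0.12 (95% interval -0.22 to 0.46, adjusted p = 0.512). None of its 3 probe sets was called. Atp6ap1 had a log2 fold change of 0.09 (adjusted p = 0.445).

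The subunits of intercalated cells outside the symbol rule give the comparison for Atp6v0a4. Atp6v1b1, their B subunit, read 8.13, 8.02 and 8.36 in knockout samples, against 9.22, 9.55 and 9.12 in wild-type samples (log2 fold change -1.13, SE 0.14, adjusted p = 0.000557). Atp6v1c2 fell by 0.79 on the log2 scale (SE 0.08), whereas Atp6v0d2 was not called, with a log2 fold change of -0.17 (SE 0.15, adjusted p = 0.371). Atp6v1g3 was not analysed here. Atp6v1b1, Atp6v1c2 and Atp6v0d2 are also among the intercalated cell markers counted above, so they add no separate evidence. The anion exchangers of the same cells, Slc26a4 and Slc4a1, fell as given above.

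Genes that assemble or regulate the V-ATPase, or signal from the lysosome surface, went in both directions. Of 32 measured, 6 rose and 8 fell, with a median log2 fold change of -0.07. That is 43.8% called, beside 49.2% of all genes. Besides Tcirg1, Rragd, a GTPase that recruits mTORC1, rose 1.90-fold and Oxr1, a TLDc protein that binds the V-ATPase, 1.61-fold. Rogdi, of the complex that reassembles the pump, fell 1.79-fold, the chloride/proton exchanger Clcn6 1.73-fold and Ncoa7, a further TLDc protein, 1.46-fold. Of 30 lysosomal enzymes and membrane proteins, 13 rose and 6 fell, with a median log2 fold change of 0.16. Calls made up 63.3% of them, beside 49.2% of all genes. Without knockout 1 and without knockout 2, 9 rose and 3 fell. Hexa, a hexosaminidase subunit, rose 2.72-fold, the protease Ctsd 2.55-fold and the galactosidase Gla 1.97-fold, while the sulfatase Arsb fell 2.13-fold, the sialidase Neu1 1.71-fold and the acid lipase Lipa 1.68-fold. Macrophages are rich in lysosomes, and their markers had a median log2 fold change of 1.76 in these samples, whose part in these calls was not tested.

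Lysosomal genes, V-ATPase subunits among them, are known in human cells to carry the E-box CACGTG, often within a longer element that TFEB binds, in which GT stands before it and AC after it. Both forms were searched in the promoters of the RefSeq table of GRCm38.p6, each 300 bases from 250 before a transcript start. Both are their own reverse complement, so a match counts for both strands, and the longer one contains the shorter. Of the 43 genes 30 matched a promoter, 36 promoters in all. CACGTG stood in 4 of 15 promoters of the V-ATPase genes, 26.7%, beside 7.15% of all 32851 promoters. It also stood in 1 of 10 promoters of the Na/K group, that of Atp1b3 (from -221), and in 1 of 10 of the Ca group. The longer form stood in 0 of the 15 and in 0.326% of all promoters. It was found in 1 of 10 Ca pump promoters, that of Atp2b1, the Ca pump promoter with CACGTG. The V-ATPase promoters with a match and that of Atp2b1 are shown as stretches of 90 bases, 5′ to 3′ on the gene's strand, with CACGTG in capitals. Positions are counted from the transcript start. The stretch runs from -60 to 29, except in Atp6v1a, where the motif begins at -131 and the stretch runs from -150 to -61. Atp6v0b (chr4:117887300-117887389, minus strand) holds the motif at 2 places, from -36 and from -18. Atp6v0d1 is at chr8:105566035-105566124 (minus strand), Atp6v0e at chr17:26676336-26676425 (plus strand), Atp6v1a at chr16:44139320-44139409 (minus strand) and Atp2b1 at chr10:98914582-98914671 (plus strand).
Atp6v0b: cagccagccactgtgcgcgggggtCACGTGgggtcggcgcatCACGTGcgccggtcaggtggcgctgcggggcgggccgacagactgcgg
Atp6v0d1: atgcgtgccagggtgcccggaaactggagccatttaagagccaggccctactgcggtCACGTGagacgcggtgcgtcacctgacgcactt
Atp6v0e: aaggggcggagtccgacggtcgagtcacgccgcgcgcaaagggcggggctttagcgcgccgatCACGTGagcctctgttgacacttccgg
Atp6v1a: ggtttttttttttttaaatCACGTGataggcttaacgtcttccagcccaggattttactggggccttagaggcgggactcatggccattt
Atp2b1: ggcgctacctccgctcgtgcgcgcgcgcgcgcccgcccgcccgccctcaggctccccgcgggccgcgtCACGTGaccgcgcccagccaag

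The 4 V-ATPase genes with CACGTG in the window had a median log2 fold change of -0.16, with 0 higher and 2 lower. The 10 V-ATPase genes with a promoter and no match had a median of -0.24, with 1 higher and 4 lower. Of all genes 49.2% were called, 21.6% higher and 27.7% lower, so neither count stands out from the array. A match is a description of these letters and not a bound site.

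**Figure D4:**
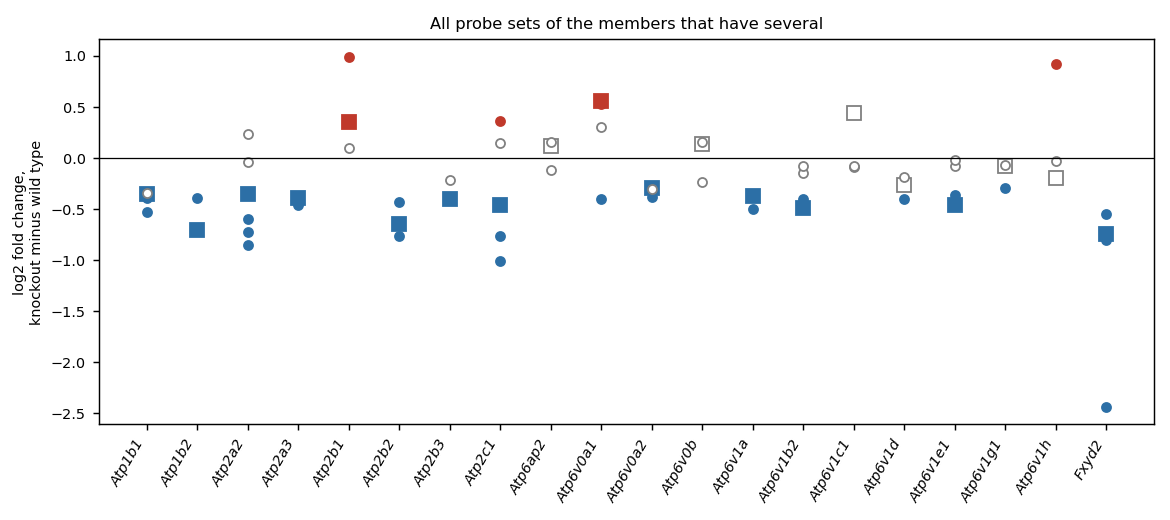
Log2 fold change (knockout minus wild type) of every probe set of the 20 genes that have several; squares are the brightest probe set, which stands for the gene, circles the others, red called higher, blue called lower and open grey not called. Atp2c1 and Atp6v0a1 have calls in both directions, and the dimmest probe set of Fxyd2 lies at -2.44.

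Probe sets of the same gene mostly agreed in direction. Of the 20 genes with several probe sets, 5 had all of them called the same way, among them Fxyd2 and Atp2b2, and 3 had none called. Calls in both directions were found in Atp2c1 and Atp6v0a1. Over the 90 probe sets of all 43 genes, 9 were called higher and 39 lower, by a fit over all 45037 probe sets in which 44.0% were called.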

How the data were processed

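The authors deposited 1 table of log2 values, 45101 probe sets by 6 arrays. RMA is named in the submitters' processing notes, with no version, and no chip definition is stated. The log2 scale was read from the range of 2.90 to 14.82. Array medians lay between 6.20 and 6.25. Arrays have no counting depth, and 3 samples per group limit the precision. The annotation names 34945 probe sets with 1 gene and 932 with several; 9160 have no name and 64 are control probe sets. Current symbols came from the RefSeq table of GRCm38.p6 through the Entrez identifier (34741 matched). The brightest probe set by mean over 6 arrays stands for a gene. RMA makes no detection call, and folds of dim genes are compressed. Probe sets whose names end in _s_at or _x_at, such as those of Atp6v0b, Atp6v1e1, Atp6ap1 and Atp6ap2, can bind related transcripts. Some probe sets of Fxyd2, Atp1b1 and Atp6v1h have such names too.

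Knockout and wild-type arrays were compared by limma 3.58.1 in R 4.3.3 (lmFit, eBayes, two-sided, no covariate). The fit was also run on simulated arrays with independent noise and few changed genes. That setting differs from these data, so it does not bear on the calls given here. Intervals cover 95%. Members and lists were chosen with earlier results of these data known. Values of all arrays are given for genes called at 2-fold or more and for the main kidney forms. From each pathway list the 3 called genes that changed most in either direction are named, and from each marker list the 2 that changed most. Lists have no test of their own. As alternatives, probe sets were averaged per gene, dim genes were dropped, the prior was trended and robust, arrays were re-centred, the replicate number was a block, arrays were left out in turn, the fit covered all probe sets, and the threshold was 0.01. Tables and plots used Python 3.11.15 and matplotlib 3.10.9.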

Additional observations from a re-analysis of the deposited data

How the results depend on the processing

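The main counts were 5 genes higher and 18 lower of 43 (Na/K group 2 and 3, Ca pumps 1 and 5, proton pumps 2 and 10). No gene called under any setting changed direction. Of the 23 called genes, 15 kept their call in every setting run, and 16 in all 6 fits with 1 array left out. With 1 array left out the genes higher ranged from 4 to 6 and lower from 12 to 16. In the Na/K group these counts were 2 to 3 and 3 to 4, in Ca pumps 0 to 1 and 3 to 5, and in proton pumps 2 to 3 and 6 to 10. Among brighter genes, where 29 of the 43 were tested, 3 were higher (Na/K 1, proton pumps 1) and 3 Ca pumps lower. The fewer genes tested account for these counts. At a threshold of 0.01, 3 were higher and 11 lower, with 0 and 3 Ca pumps and 1 and 6 proton pumps. Across all genes 27.5% passed that threshold. With centred arrays 0 Ca pumps were higher, as Atp2b1 lost its call. With the mean of all probe sets 1 proton pump gene was higher, as Atp6v0a1, whose probe sets conflict, lost its call. A replicate block gave 4 genes higher and 13 lower, with 0 Ca pumps higher and 6 proton pump genes lower. No pairing by replicate number was visible. Deviations of same-numbered samples correlated at -0.13 to -0.10, and 0 of 3 knockout samples correlated best with the wild-type sample of their own number. With 3 samples a group and weak correlations throughout, this cannot exclude a pairing. Precision is limited by 3 arrays a group and, for Atp12a, Atp1b4, Atp2b4, Atp2c2 and Fxyd7, by signals around or below the lower quartile.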
